A study of Mus musculus with 64 samples.

Results

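The hippocampus of WSB/EiJ mice, an inbred strain derived from wild mice, was compared with the hippocampus of 7 other inbred strains by bulk RNA sequencing. WSB/EiJ contributed 8 of the 64 libraries, 4 from females and 4 from males, and these 8 were chosen by the strain given in the sample labels. The other 56 libraries came from C57BL/6J, 129S1/SvImJ, NOD/ShiLtJ, A/J, NZO/HlLtJ, CAST/EiJ and PWK/PhJ, again with 4 females and 4 males in each strain. All groups are untreated as far as the labels say. The labels name no allele or agent and give no age. They also do not say whether libraries of a group came from separate animals, so p-values measure the spread between these libraries, which may be partly technical.

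All 8 strains are parents of mouse populations in which their alleles are mixed to map traits, the Collaborative Cross and the Diversity Outbred. C57BL/6J, 129S1/SvImJ, NOD/ShiLtJ, A/J and NZO/HlLtJ are classical laboratory strains, whose genomes are largely of Mus musculus domesticus origin. WSB/EiJ is a wild-derived strain of the same subspecies, whereas CAST/EiJ and PWK/PhJ were derived from the subspecies castaneus and musculus. The hippocampus holds pyramidal neurons of the CA fields, granule neurons of the dentate gyrus, interneurons, glia and vessels, and in bulk RNA fewer cells of a type and less RNA per cell cannot be told apart.

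Levels are given as library-scaled counts (CPM) and as mean ± SD, with n = 8 for WSB/EiJ and n = 56 for the other strains. Fold changes are log2 values of WSB/EiJ minus the mean of the 7 strains, each strain and sex weighted equally. Adjusted p-values come from the quasi-likelihood test of edgeR, with the Benjamini-Hochberg method applied over all genes tested. A gene was called at an adjusted p under 0.05 and a log2 fold change of at least 1 in size, and "at any fold" drops the second condition. Total counts of the WSB/EiJ libraries ran from 19815678 to 23793880 and those of all libraries from 16607602 to 27759221. The level of sex-linked genes matched the labelled sex in 64 of 64 libraries. Each of the 64 libraries correlated best with a group of its own strain, and the 4 libraries that stood apart from their group came from other strains. The sample titles carry numbers that run in blocks by strain and sex (451 to 462 for WSB/EiJ), so strain and whatever the numbers reflect cannot be told apart.

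Markers of the labelled tissue were present. In WSB/EiJ the CA1 markers Wfs1 and Fibcd1 were at 279 and 200 CPM, the CA2 marker Rgs14 was at 137 CPM, and Prox1, which specifies dentate granule neurons, was at 94.2 CPM. Choroid plexus, the epithelium that makes cerebrospinal fluid, can be carried over in dissection. The summed level of its 22 genes ran from 323 to 7401 CPM in WSB/EiJ (median 848) and from 188 to 6084 CPM in the other strains (median 880). None of the 22 passed the test at any fold between WSB/EiJ and the other strains.

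Of 17382 genes tested, 437 (2.51%) were called higher in WSB/EiJ than in the mean of the other strains and 423 (2.43%) lower, 4.95% in all. As a share of the 32227 genes in the deposited table, these were 1.36% and 1.31%. Without the filter on low counts the shares were 3.19% higher and 1.60% lower, and among genes with a mean count of at least 50 they were 0.276% and 0.428%. The direction was the same in females and males for 436 of the 437 and for 421 of the 423, which selection on the mean of both sexes favours. The fold minimum was passed in each sex by 331 of the 437 and 327 of the 423. At any fold, 3879 genes (22.3%) were higher and 3471 (20%) lower, with a median over all genes of 0.01. A call against a mean of 7 strains can rest on a few of them. Of the 437 higher genes, 175 were called against 3 or fewer single strains, and of the 423 lower genes 86 were.

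A stricter set of genes was called against each of the 7 strains in turn, 46 higher (0.265%) and 73 lower (0.420%), together 0.685%. All 8 WSB/EiJ libraries lay above all 56 others for 71 genes (0.408%) and below them for 71 genes (0.408%). Many genes named below were chosen for this separation, so a lack of overlap in them is part of their selection. Cwc22, Serpinb6a and Aldh3b2 were the most abundant of the 46 higher genes, and Cryab, H2-D1, Zfp738 and Ly6c1 were among the more abundant of the 73 lower ones. Reads can be counted for the wrong member where genes are nearly identical. Each gene was therefore scored by the share of its 60-base stretches that also occur in transcripts of another gene. Among genes with more than 20% shared, 16.8% of 1096 were called, against 4.25% of the 11047 genes with none.

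**Figure D1:**
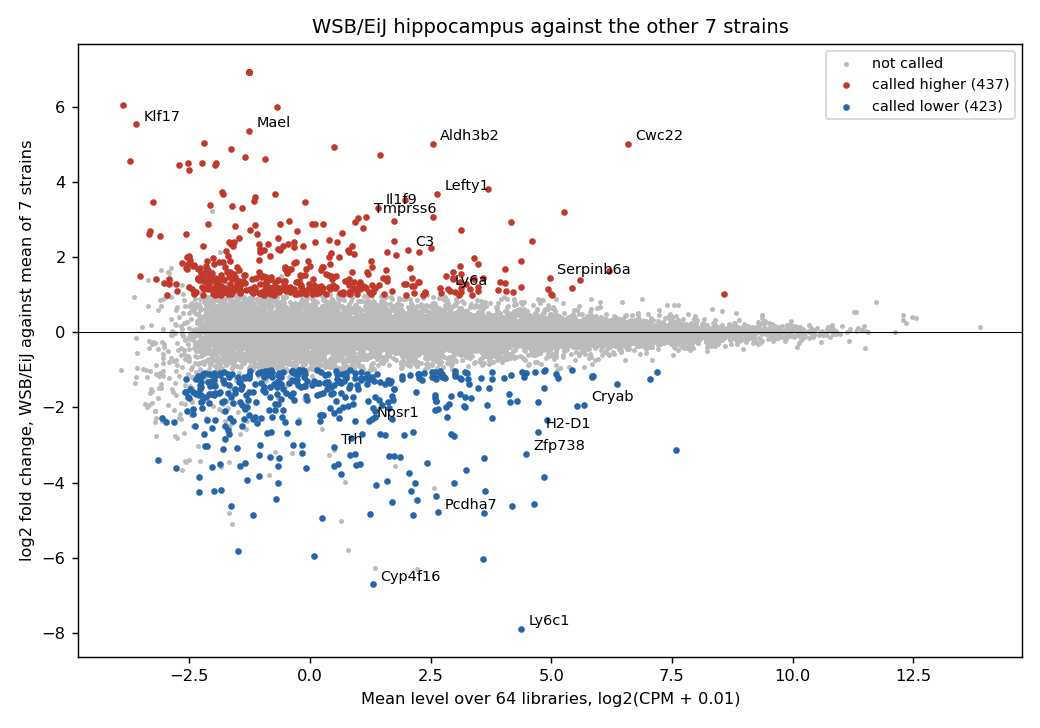
Log2 fold change of WSB/EiJ against the mean of the other 7 strains (vertical axis) for each of the 17382 genes tested, by mean level over the 64 libraries as log2(CPM + 0.01). Red points are the 437 genes called higher and blue points the 423 called lower. Cwc22 and Ly6c1 lie far from zero at mean levels above 1 CPM, while most called genes are of low level (277 higher and 214 lower genes have a mean under 1 CPM).

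The sequences shown here belong to genes at either end of this range. One is a stretch of the Cwc22 coding sequence, printed because several genes on the same chromosome share it. The others are the promoters of Ly6c1 and its neighbour Ly6c2, printed because both genes were called lower. The Cwc22 sequence is from the transcript Cwc22-205 of GENCODE M21, and its capitals mark the first 40 bases of a run of 344 bases (coding positions 493 to 836 of 2169) that occurs unchanged in transcripts of Gm13693. The promoters are from RefSeq on GRCm38.p6 and hold 250 bases before and 50 after the gene's start, on the minus strand, at chr15:75048788-75049087 for Ly6c1 and chr15:75111922-75112221 for Ly6c2. Capitals mark the longest run that both promoters share, 20 bases.
Cwc22: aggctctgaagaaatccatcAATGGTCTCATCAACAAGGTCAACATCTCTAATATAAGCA
Ly6c1: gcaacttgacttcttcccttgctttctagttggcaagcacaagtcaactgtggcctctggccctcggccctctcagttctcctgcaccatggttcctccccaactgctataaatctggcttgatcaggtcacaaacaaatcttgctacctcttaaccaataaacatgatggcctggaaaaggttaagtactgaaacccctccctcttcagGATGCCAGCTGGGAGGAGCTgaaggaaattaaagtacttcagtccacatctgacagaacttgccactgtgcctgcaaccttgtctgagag
Ly6c2: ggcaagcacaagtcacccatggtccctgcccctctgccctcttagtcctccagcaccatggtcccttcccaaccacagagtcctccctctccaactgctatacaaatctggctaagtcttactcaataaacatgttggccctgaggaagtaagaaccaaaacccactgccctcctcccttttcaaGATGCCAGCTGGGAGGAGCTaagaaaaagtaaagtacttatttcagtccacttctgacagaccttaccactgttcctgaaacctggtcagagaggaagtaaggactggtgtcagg
In a global alignment of 334 columns, 208 bases (62.3%) of the promoters were identical. The letters TATAAA, searched on both strands, occur in the Ly6c1 window and not in the Ly6c2 window, and 14.2% of 27025 promoters of the same length hold them. A match is a description of the reference sequence and not of the WSB/EiJ genome.

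Cwc22, a splicing factor that places the core of the exon junction complex on spliced RNA, had the highest mean level of the genes called higher against every strain. Its level in the WSB/EiJ females was 617, 536, 688 and 695 CPM and in the males 599, 594, 679 and 623 CPM. In the other 56 libraries it ran from 15.3 to 27.4 CPM with a median of 18.8. The groups were far apart, and the 7 strain means lay close together, from 17.7 CPM in PWK/PhJ to 23.6 CPM in CAST/EiJ. The log2 fold change was 5.02 (SE 0.0309, adjusted p = 5.17e-71, edgeR's quasi-likelihood test).

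Genes on chromosome 2 that share sequence with Cwc22 were also called higher in WSB/EiJ, but 6 of them did not follow Cwc22 across strains. Gm13691, Gm13693, Gm13694, Gm13696, Gm13697 and Gm13698 share 100% of their 60-base stretches with each other, and each holds 13.8% of the stretches of Cwc22. Their deposited values were the same in every library, so they count as 1 measurement. In WSB/EiJ this measurement was 1.56 ± 0.202 CPM and in CAST/EiJ it was 1.69 ± 0.169 CPM. It was 0 in all 48 libraries of the other 6 strains, which allows up to 0.00281 CPM (3 counts over those libraries), so WSB/EiJ was at least 553-fold higher than these. CAST/EiJ thus had counts over the copies and a level of Cwc22 near that of the other strains. Gm13727, which shares 35.1% of its stretches with Cwc22, was at 0.458 ± 0.260 CPM in WSB/EiJ and had counts in NOD/ShiLtJ and NZO/HlLtJ only among the others, at most 0.0498 CPM. How the authors' counting divided reads among these copies is not given in the sources used here, and the values of Cwc22 and its copies are uncertain to that extent.

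Other genes of the exon junction complex and of nonsense-mediated decay, the surveillance of faulty transcripts that the complex takes part in, were measured beside Cwc22. Of 24 tested, Cwc22 alone was called with the fold minimum, beside 4.95% of all genes. At any fold 7 were higher and 3 lower, beside 22.3% and 20% of all genes, and the list's median was 0.03 against 0.01 for all genes. Eif4a3, the helicase at the core of the complex, was at 48.9 CPM in WSB/EiJ and 47.2 in the other strains (log2 0.05, adjusted p = 0.29, edgeR). Magoh and Rbm8a, the pair of proteins that lock Eif4a3 on RNA, had log2 fold changes of 0.06 and -0.06.

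Ly6c1, a surface protein anchored in the membrane by a lipid and a marker of brain endothelium in many strains, had the most negative log2 fold change of all genes tested. Its level was 0.0825, 0.140, 0.0902 and 0.274 CPM in the WSB/EiJ females and 0.0449, 0.0451, 0.0464 and 0.101 CPM in the males, from 1 to 6 counts per library. The other 56 libraries held 16.1 to 34.4 CPM with a median of 23.3, from 344 to 751 counts. No library of another strain came near the WSB/EiJ range, and the log2 fold change was -7.90 (SE 0.155, adjusted p = 4.46e-44, edgeR). Ly6c1 shares 27.1% of its 60-base stretches with other genes, 18.4% with Ly6c2.

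Ly6c2, a marker of inflammatory monocytes, was low in all strains and had 3 counts over the 8 WSB/EiJ libraries. Single libraries held 0 to 2 counts in WSB/EiJ and 1 to 20 in the others (median 6), so the ranges overlapped. Ly6c2 shares 11.8% of its stretches with Ly6c1, and whether its few counts came from Ly6c1 reads was not tested. The mean level in the other strains was 17.8 times that in WSB/EiJ, with an interval of 6.09 to 86.3 (95%, exact Poisson, counting error only). Some other members of the Ly6 and uPAR family went the other way. Ly6a, known as Sca-1 and a marker of stem cells and endothelium, was at 12.4 ± 1.49 CPM in WSB/EiJ, called against 5 strains, and its level there overlapped that of C57BL/6J (mean 14.6 CPM) and 129S1/SvImJ. Cd59a, an inhibitor of the complement attack complex, rose by 0.85 on the log2 scale at any fold. Of the family's 15 tested genes, Ly6a and Cd59b were called higher and Ly6c1 and Ly6c2 lower, beside 2.51% and 2.43% of all genes. At any fold 7 were higher and 3 lower, beside 22.3% and 20% of all genes, and 5 were not called. The call of Cd59b was lost without CAST/EiJ (0.85).

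Other endothelial markers differed from the other strains by less than Ly6c1 and in both directions. Of 31 endothelial genes, 13 were higher and 8 lower at any fold, beside 22.3% and 20% of all genes, and 10 were not called. The median was 0.09, and Ly6a and Ly6c1 were the members called with the fold minimum. Cldn5, a tight junction protein of the blood-brain barrier, was at 24.6 CPM in WSB/EiJ and 28.3 CPM in the other strains (adjusted p = 0.092, edgeR). Pecam1, an adhesion protein of vessels, fell by 0.21 and Slc2a1, the glucose transporter of the barrier, rose by 0.31. The summed level of the list ran from 1397 to 1510 CPM in WSB/EiJ and from 1239 to 1572 CPM in the other strains.

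**Figure D2:**
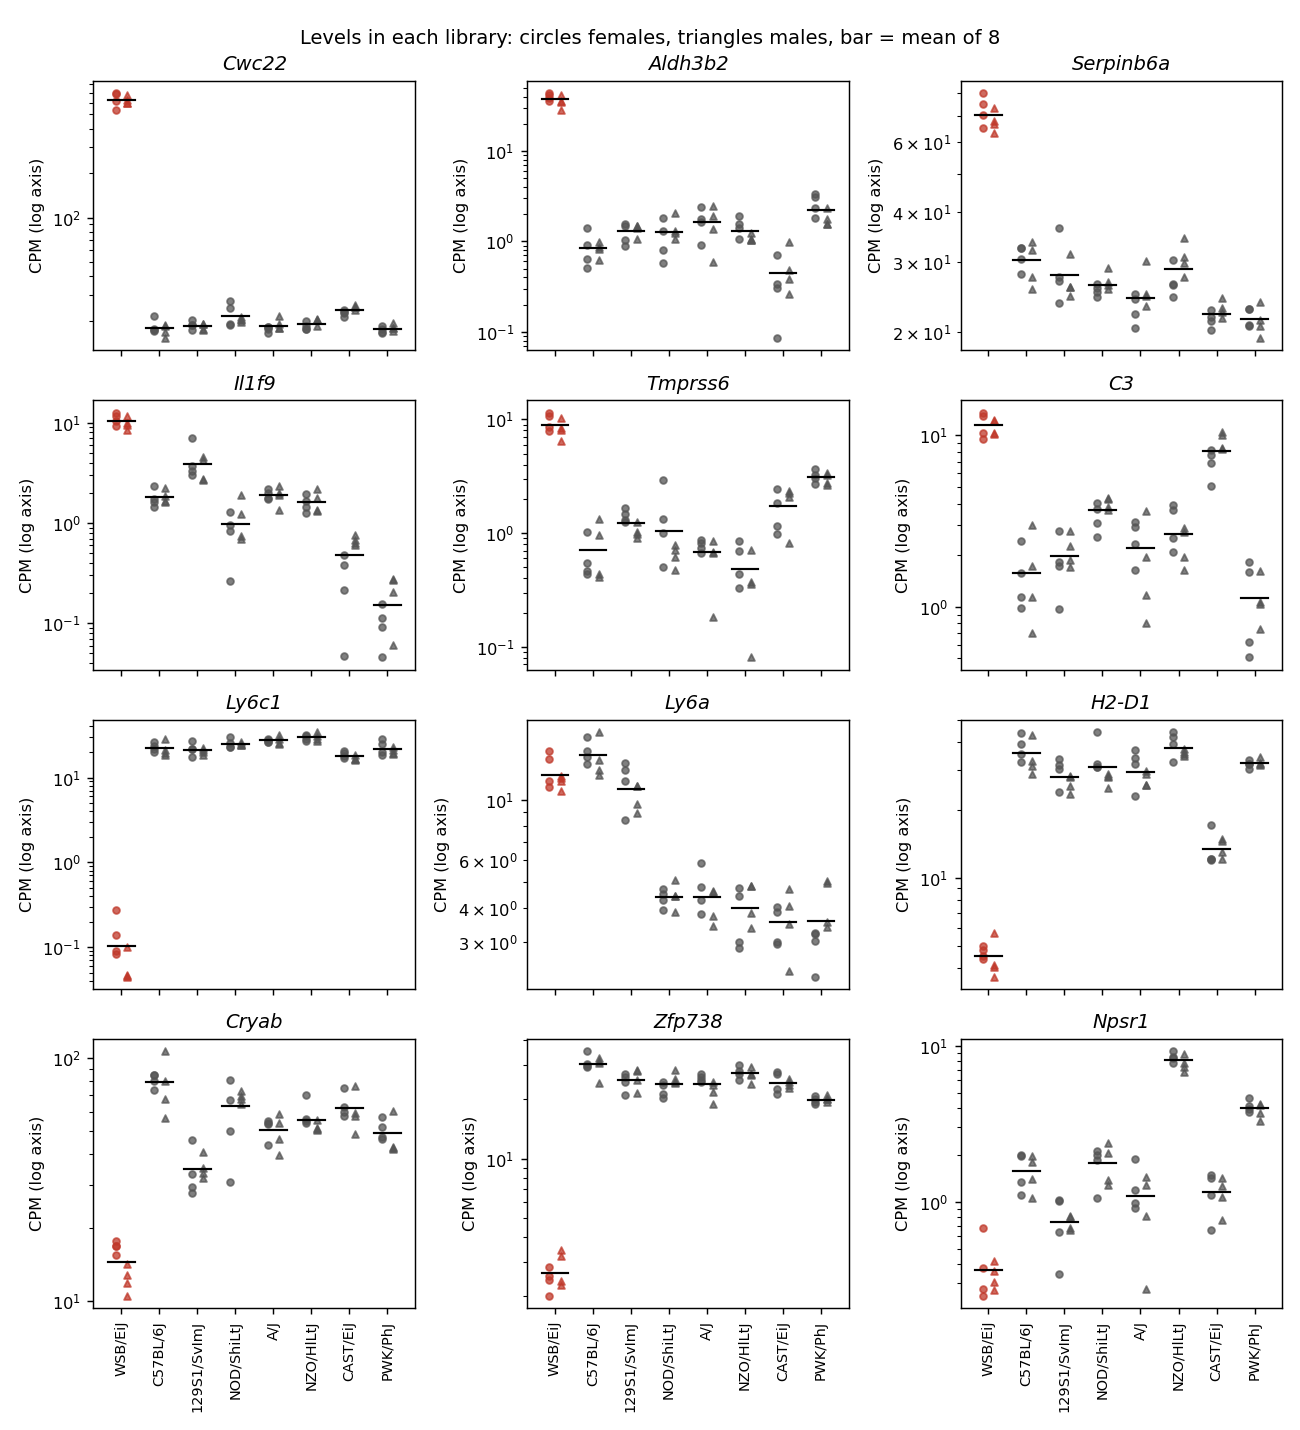
Level in each of the 64 libraries (CPM, log axis) of 12 genes, by strain, with WSB/EiJ in red, circles for females, triangles for males and a bar at the mean of the 8 libraries of a strain. For Cwc22, Aldh3b2, Serpinb6a, Il1f9 and Tmprss6 all 8 WSB/EiJ libraries lie above the other 56, and for Ly6c1, H2-D1, Cryab and Zfp738 all lie below. In C3, Ly6a and Npsr1 the WSB/EiJ points overlap those of at least 1 other strain.

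Aldehyde dehydrogenases oxidise reactive aldehydes, among them retinal and products of lipid peroxidation, and 3 of the 19 tested were called, beside 4.95% of all genes. Aldh3b2, which oxidises aldehydes at lipid membranes, was at 43.6, 41.7, 38.3 and 35.5 CPM in the WSB/EiJ females and 28.8, 42.1, 35.1 and 36.0 CPM in the males. The other libraries ran from 0.0856 to 3.34 CPM with a median of 1.24. There was no overlap, and the log2 fold change was 5.01 (SE 0.102, adjusted p = 2.04e-42, edgeR). The gene shares 20.9% of its stretches with its paralog Aldh3b3. Aldh1a7 was at 2.27 ± 0.666 CPM in WSB/EiJ against 0.497 ± 0.271 in the other strains, and was called against each of them, while its neighbour Aldh1a1, an enzyme of retinoic acid synthesis, was lower at 16.3 ± 2.22 against 36.6 ± 11.5 CPM. Without C57BL/6J the log2 change of Aldh1a1 was -0.996, just short of the fold minimum. Aldh2, the mitochondrial enzyme that clears acetaldehyde, rose by 0.20 and was not called.

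Genes of the interleukin-1 family and of inflammasomes, the complexes that mature these cytokines, were called in both directions. Il1f9, the cytokine also named interleukin-36 gamma, was at 11.7, 9.30, 10.5 and 12.6 CPM in WSB/EiJ females and 8.39, 9.93, 11.8 and 9.41 CPM in males. In the other strains it ran from 0.0458 to 6.97 CPM, from a mean of 0.152 in PWK/PhJ to 3.90 in 129S1/SvImJ. WSB/EiJ was above each of these, with a log2 fold change of 3.31 (SE 0.114, adjusted p = 3.48e-32, edgeR). Its receptor gene Il1rl2 rose by 0.47 at a level of 0.512 CPM.

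The inflammasome genes that were called were lower. Nlrp1b, a sensor known for its variation among mouse strains, was at 0.0410 ± 0.0553 CPM in WSB/EiJ against 0.313 ± 0.170 CPM, and was called against all 7 strains at this low level. Pycard, the adaptor that joins sensors to caspase-1, was at 0.745 ± 0.204 against 1.80 ± 0.595 CPM and was called against 6 strains, the exception being NZO/HlLtJ with a mean of 0.813 CPM. Il1r1, the interleukin-1 receptor, was lower by 1.11 on the log2 scale, and by 0.95 to 0.98 when C57BL/6J, NOD/ShiLtJ or A/J was left out, which ended the call. Over the list's 19 tested genes, 1 was called higher and 3 lower, beside 2.51% and 2.43% of all genes. At any fold 4 were higher and 4 lower, near the 22.3% and 20% of all genes, and the median was -0.01.

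Tmprss6, a membrane protease that in liver lowers the iron hormone hepcidin, was raised in WSB/EiJ. Its levels were 10.6, 11.4, 7.85 and 8.63 CPM in females and 6.41, 10.2, 8.08 and 8.34 CPM in males. The other libraries ran from 0.0808 to 3.68 CPM with a median of 0.931, and PWK/PhJ had the highest strain mean, 3.09 CPM. All 8 libraries were above all others, with a log2 fold change of 3.08 (SE 0.136, adjusted p = 8.04e-27, edgeR). Steap3, a reductase of endosomal iron, was at 3.11 ± 0.488 against 6.92 ± 2.21 CPM and lost its call without CAST/EiJ (-0.97). Of the 22 iron genes tested, 7 were higher and 3 lower at any fold, beside 22.3% and 20% of all genes. Trf, the transferrin gene, rose by 0.44, and Tfrc, the transferrin receptor, rose by 0.34.

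Serpinb6a, an inhibitor of serine proteases inside cells, was the second most abundant gene named for a rise against all strains. It was at 79.8, 74.8, 70.1 and 65.4 CPM in WSB/EiJ females and 73.3, 63.4, 66.8 and 67.8 CPM in males, and at 19.3 to 36.4 CPM in the other libraries. The groups did not overlap (log2 1.45, SE 0.0430, adjusted p = 3.07e-35, edgeR). Capsl, a calcium-binding protein, was at 8.58 ± 0.937 against 2.23 ± 1.05 CPM. Spn, the leukocyte surface protein CD43, was at 2.94 ± 0.498 against 0.607 ± 0.200 CPM, and Upk1b, a uroplakin of the bladder lining, at 4.34 ± 0.955 against 0.873 ± 0.422 CPM.

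Several genes that were near zero in the other strains were detected in WSB/EiJ at low level. Mael, which guards the germ line against transposons, was at 2.39 ± 0.985 CPM against 0.123 ± 0.163, and had no count in A/J or CAST/EiJ. Adad2, a testis protein related to RNA-editing enzymes, was at 1.77 ± 0.675 against 0.105 ± 0.149 CPM. Kcnj15, an inward rectifier potassium channel, was at 1.40 ± 0.335 against 0.0875 ± 0.104 CPM. Klf17, a zinc-finger factor of early embryos, was at 0.510 ± 0.175 against 0.00988 ± 0.0285 CPM. All 4 lay above every library of the other strains, as the rule for naming them required. Klf17, and Gm13727 above, had at most 3 and 1 counts in any other library and passed the count filter through WSB/EiJ alone. At such levels the fitted fold changes (4.51 to 5.54) depend on the prior count of the fit, edgeR's default.

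Abundant genes called lower against every strain had roles in protein folding, transcription and antigen presentation. Cryab, a small heat shock chaperone that is plentiful in oligodendrocytes and astrocytes, was at 15.4, 16.7, 17.7 and 16.8 CPM in WSB/EiJ females and 10.5, 14.2, 12.8 and 11.8 CPM in males. The other libraries ran from 27.9 to 106 CPM, with the lowest strain mean in 129S1/SvImJ (34.8 CPM) and the highest in C57BL/6J (79.2 CPM). The groups did not overlap (log2 -1.93, SE 0.112, adjusted p = 5.70e-21, edgeR). Myelin and mature oligodendrocyte genes did not share a change of this size: of 24 tested, none was called with the fold minimum. At any fold 1 was higher and 5 lower, beside 22.3% and 20% of all genes, and the median was -0.06.

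Acp7, an acid phosphatase, was at 0.119 ± 0.0631 against 1.58 ± 0.746 CPM. Cyp4f16, a cytochrome P450 that hydroxylates fatty acids, had 3 counts over the 8 libraries, 5 of which had none. The mean in the other strains was 158 times that in WSB/EiJ (95% interval 54.1 to 767, exact Poisson, counting error only), and PWK/PhJ was the lowest of them at 0.439 CPM.

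Zfp738, a KRAB zinc-finger gene on chromosome 13, was at 2.64 ± 0.483 CPM in WSB/EiJ and 24.9 ± 3.70 CPM in the other strains. Its libraries ran from 2.01 to 3.44 against 18.8 to 34.9 CPM, and it shares only 6.72% of its stretches with other genes. A cluster of zinc-finger genes on chromosome 2 was low as well: Zfp965, Zfp966, Zfp967, Zfp968 and Zfp973 were each called against all 7 strains, with log2 fold changes from -4.35 (Zfp973) to -2.28 (Zfp966). These 5 share 80.3% to 100% of their stretches with other genes, so their single values are uncertain. They formed runs of neighbouring genes called lower, Zfp968 with Gm4724, Zfp965 and Gm14288, and Zfp973 with Gm14305, Gm14295 and Gm14296. CAST/EiJ had the lowest mean of the other strains for each of the 5 Zfp genes. It was as low as WSB/EiJ for some of their neighbours. Gm4724 was at a mean of 0.168 CPM in CAST/EiJ and 0.134 CPM in WSB/EiJ, and the CAST/EiJ mean of Gm14305 lay just below that of WSB/EiJ. Gm14288 went the other way, with its highest strain mean in CAST/EiJ (14.2 CPM). These 3 neighbours were each called against 6 strains, so the low level of the runs was not particular to WSB/EiJ. On chromosome 4 the neighbours Zfp990, Gm13212, Zfp980 and Zfp986 were called higher, by 1.01 to 2.40, and here too a median of 57.3% of the stretches was shared. Zfp990 was called on the log scale although its mean was 0.918 CPM in WSB/EiJ and 1.06 CPM in the others.

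Clustered protocadherins, adhesion molecules whose promoters are chosen singly by each neuron and which give it an identity, were called in both directions. Pcdha7 was at 0.254 ± 0.167 CPM in WSB/EiJ against 7.13 ± 1.87, with single libraries from 0 to 0.502 against 3.96 to 14.1 CPM. Pcdhb14 was at 1.24 ± 0.275 against 8.48 ± 2.76 CPM. Both were called against all 7 strains. Pcdha8, next to Pcdha7 in the alpha cluster, was higher at 9.81 ± 2.01 CPM, and its libraries overlapped those of PWK/PhJ (mean 7.73 CPM) and CAST/EiJ. Pcdha1 was called higher with 10.5 ± 1.28 CPM and was below PWK/PhJ at 25.8 CPM. Of 57 tested, 2 were called higher and 2 lower, 10 were higher and 17 lower at any fold, beside 22.3% and 20% of all genes, and the median was -0.11. The alpha genes share their constant exons, and Pcdha1, Pcdha7 and Pcdha8 have 59.5% to 66.6% shared stretches, while Pcdhb14 has 1.18%.

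Genes of the major histocompatibility complex carry strain haplotypes, and 17 is the chromosome that holds them. H2-D1, a class I molecule that presents peptides on the cell surface, was at 4.41, 4.84, 4.51 and 5.02 CPM in WSB/EiJ females and 5.70, 4.06, 3.67 and 4.15 CPM in males. The other libraries ran from 12.1 to 44.2 CPM with a median of 31.5, and CAST/EiJ had the lowest strain mean at 13.5 CPM. WSB/EiJ lay below each (log2 -2.64, SE 0.0874, adjusted p = 1.00e-32, edgeR). Another class I gene, H2-K1, was at 14.4 against 15.9 CPM (adjusted p = 0.60, edgeR), and B2m, the light chain of class I molecules, fell by 0.29. Of 23 class I and peptide loading genes, 2 were called lower and none higher with the fold minimum, beside 2.43% and 2.51% of all genes. At any fold 5 were higher and 7 lower, beside 22.3% and 20% of all genes (median -0.07). In class II, H2-Eb1 was at 0.243 ± 0.175 against 1.32 ± 0.931 CPM. H2-Eb2 was called higher by the fit, which averages strains on the log scale, although its mean was 0.0509 CPM in WSB/EiJ and 0.150 in the others, and it was not called by DESeq2 or without any 1 of C57BL/6J, 129S1/SvImJ, A/J, CAST/EiJ and NZO/HlLtJ (0.73 to 0.99). Whether differences between haplotypes and the reference bear on these values was not tested.

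Complement genes showed opposite changes in a pair of linked paralogs. C4b, the complement component that tags targets for removal, was at 12.1 ± 1.51 CPM in WSB/EiJ, with libraries from 9.62 to 13.8, against 51.2 ± 19.2 and 16.9 to 97.4 CPM in the others. It was called against 6 strains, the exception being 129S1/SvImJ (mean 22.1 CPM). C4a, its paralog, rose by 1.66, from 2.52 to 6.10 CPM. The 2 share 29.0% of the stretches of C4b. C3, the central component of the cascade, was at 11.4 ± 1.5 against 3.05 ± 2.39 CPM, above all strains but CAST/EiJ (8.12 CPM), whose libraries overlapped those of WSB/EiJ. C1qc, a chain of the recognition molecule C1q, was at 10.7 ± 1.96 against 22.6 ± 5.21 CPM with no overlap, whereas C1qa (28.9 and 31.5 CPM) and C1qb (25.6 and 26.6 CPM) did not pass the test. The call of C1qc was lost without WSB/EiJ female 3 and without C57BL/6J (log2 -1.0 and -0.95) and in females alone (-0.93). Of 24 complement genes, 2 were called in each direction, beside 2.51% higher and 2.43% lower of all genes.

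Microglia, the resident immune cells of the brain, had lower levels of most of their markers. Of 25 tested, 16 (64%) were lower and Olfml3 alone was higher at any fold, with a median of -0.16, beside 20% lower and a median of 0.01 over all genes. Most changes were small. Cx3cr1, the fractalkine receptor, fell by 0.24, Csf1r, the survival receptor of these cells, by 0.27, Trem2, a lipid receptor, by 0.37, and Siglech by 0.68. P2ry12, a receptor of resting microglia, was at 40.2 CPM against 43.2 (adjusted p = 0.10, edgeR). Fcrls, an Fc receptor-like gene, was at 2.10 ± 0.424 CPM against 11.3 ± 11, called against 4 strains and not against PWK/PhJ, which had a mean of 2.0 CPM. The summed level of the list ran from 1326 to 1682 CPM in WSB/EiJ (median 1383) and from 1167 to 2338 CPM in the others (median 1686), so the ranges overlapped. Over the other settings tried and with each strain left out, the number lower ran from 13 (no filter, or without NZO/HlLtJ) to 20 (without 129S1/SvImJ).

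All 13 protein genes of the mitochondrial genome, which encode subunits of the respiratory chain and of ATP synthase, were higher in WSB/EiJ at any fold. Their log2 fold changes ran from 0.13 (mt-Co1) to 1.03 (mt-Nd3), with a median of 0.40. The summed level was 57727 to 73358 CPM in WSB/EiJ (median 63630) and 35590 to 86561 CPM in the other strains (median 51492), and the ranges overlapped. mt-Nd3 had levels of 494 to 700.5 CPM in WSB/EiJ and 55.5 to 844 CPM in the others, with CAST/EiJ at a mean of 81.6 and C57BL/6J at 590 CPM. It was called against 2 strains, and lost the call without CAST/EiJ (0.72), without PWK/PhJ (0.87) and without WSB/EiJ male 3 (0.98). The nuclear genes of oxidative phosphorylation did not show a change in 1 direction: of 52, 3 were higher and 6 lower at any fold. Both counts were below the shares over all genes, 22.3% higher and 20% lower, and the list's median was 0.01. mt-Nd3 shares 97.9% of its stretches with other genes, and nuclear copies of the mitochondrial genome can take its reads.

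Ependymal cells line the ventricles with motile cilia and lie beside the choroid plexus. Of 16 of their genes tested, 13 (81.2%) were higher and 1 lower at any fold, beside 22.3% and 20% of all genes, with a median of 0.64. Foxj1, the master factor of motile cilia, was at 17.1 against 11.2 CPM (log2 0.63), Tmem212 at 3.46 against 1.99 CPM (0.96) and Tekt4, a tektin of ciliary microtubules, at 2.05 against 0.949 CPM (1.17). Rsph1, a radial spoke protein, was lower at 6.92 against 13 CPM. The summed level ran from 58.3 to 88.8 CPM in WSB/EiJ and from 28.1 to 108 CPM in the others. With a choroid plexus score of each library as a covariate, 13 were higher again. A minimum mean count of 50 removed members of low level, among them Tekt4, and 6 of those left were higher. That count is therefore not comparable with the 13. No choroid plexus gene passed, with a list median of 0.26.

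**Figure D3:**
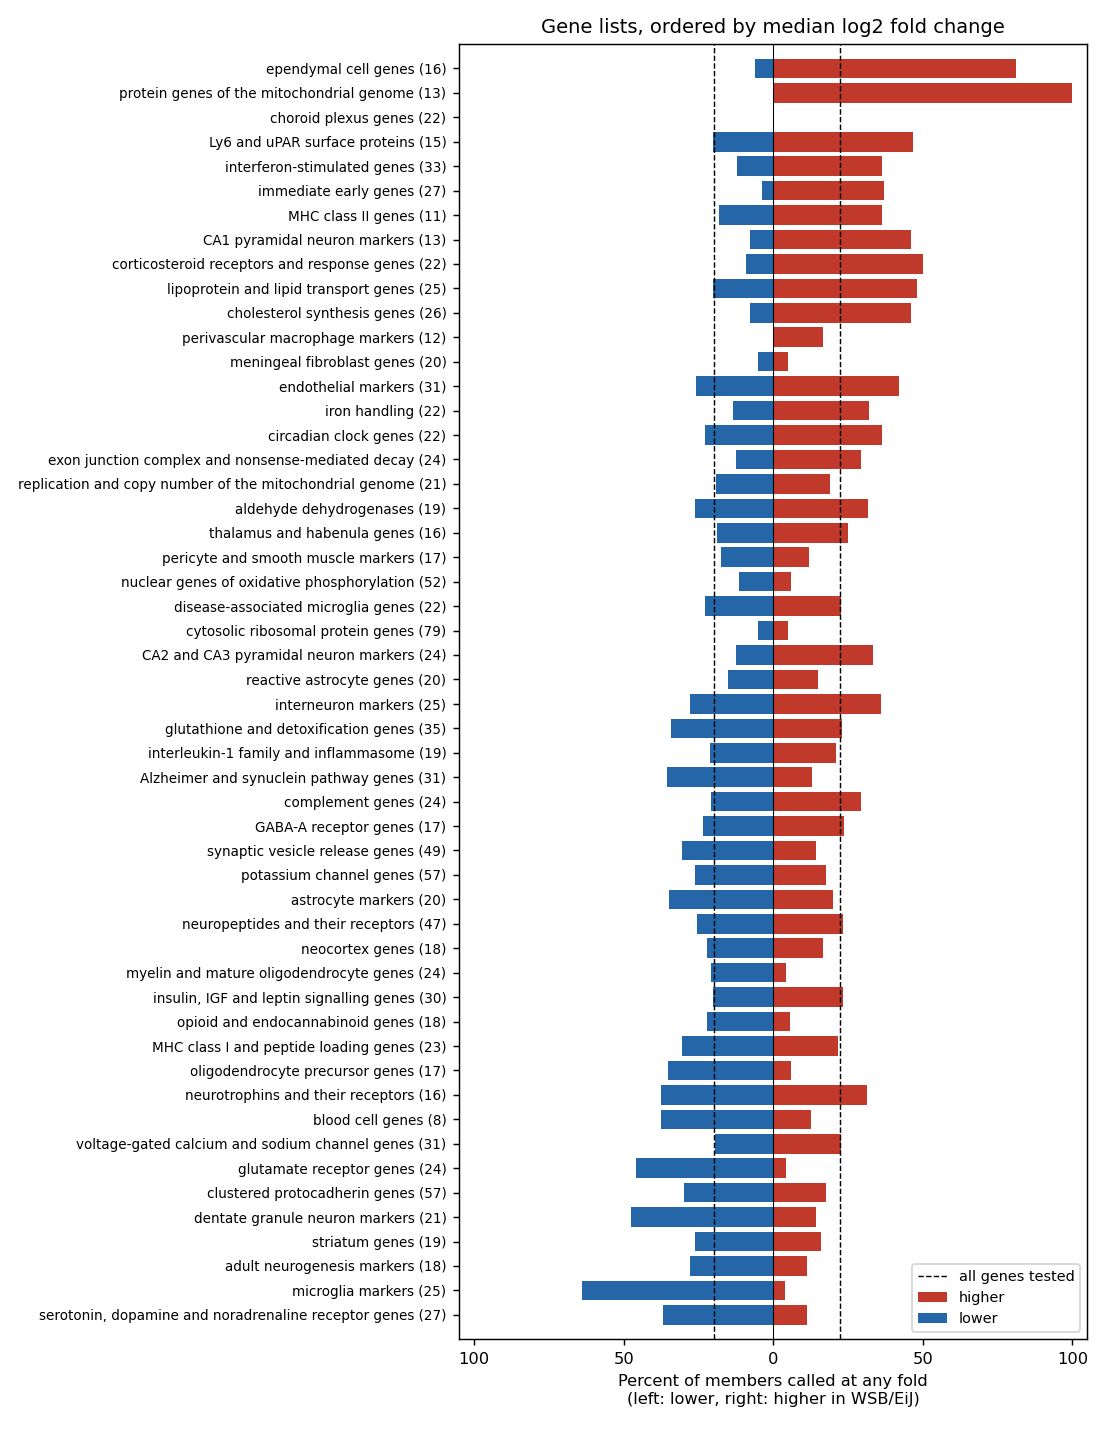
Share of the tested members of 52 gene lists (number tested in brackets) that were higher (red, right) or lower (blue, left) in WSB/EiJ at an adjusted p under 0.05 and any fold, ordered from the highest to the lowest median log2 fold change. Dashed lines give the shares over all genes tested, 22.3% higher and 20% lower. Ependymal and mitochondrial genome genes are mostly higher, and microglia markers mostly lower.

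Of 27 immediate early genes, which respond to recent activity, 10 were higher and Jun lower at any fold, beside 22.3% higher and 20% lower of all genes. None was called with the fold minimum, and the median was 0.21. Npas4, an activity-dependent transcription factor, rose by 0.72 and Egr1 by 0.32, while Fos was at 9.59 against 7.14 CPM (adjusted p = 0.057, edgeR) and Arc at 118 against 101 CPM (adjusted p = 0.12). The number higher ran from 7 without NOD/ShiLtJ or NZO/HlLtJ to 17 without CAST/EiJ. Of 24 glutamate receptor genes, 11 were lower and Grm2 higher at any fold, beside 20% lower and 22.3% higher of all genes, and none was called with the fold minimum. Grin3a, an NMDA receptor subunit that lowers calcium flow, fell by 0.58 and Grin2b by 0.27, whereas the obligatory subunit Grin1 was at 557 against 532 CPM (adjusted p = 0.12, edgeR). Of 26 cholesterol synthesis genes 12 were higher and 2 lower at any fold, none with the fold minimum, beside the same shares of all genes. Among the higher ones were Sqle, squalene epoxidase, by 0.31 and Nsdhl by 0.37, and the list median was 0.10.

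Among the lists of CA1, CA2 and CA3, and dentate markers, Lefty1, Avpr1b and Dsp passed the fold minimum upwards. Lefty1, an inhibitor of Nodal signalling, was at 13.2 to 18.4 CPM in WSB/EiJ with a log2 fold change of 3.69, and was called against 4 strains, while 129S1/SvImJ had a mean of 12.6 CPM and NZO/HlLtJ 0.0511 CPM. Dsp, a desmosome protein of dentate granule neurons, was at 62.5 ± 10 CPM in WSB/EiJ against 40 ± 24.1. It was called against 2 strains, and its log2 change of 1.18 became 0.62 without CAST/EiJ (mean 2.65 CPM) and 0.98 without PWK/PhJ. Of 21 dentate markers 10 were lower at any fold, among them Lct by 0.65 and Trpc6 by 0.69, and 3 higher, with a median of -0.12. Of 13 CA1 markers 6 were higher and 1 lower, with a median of 0.14. Over all genes, 20% were lower and 22.3% higher.

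Neuropeptide signalling genes were called in both directions, and of 47 tested 2 were called higher and 3 lower, beside 2.51% and 2.43% of all genes. Counts this small do not set the list apart from all genes. Npsr1, the receptor of neuropeptide S, a peptide of arousal and anxiety, was at 0.248 to 0.676 CPM in WSB/EiJ against 0.276 to 9.20 in the others, with NZO/HlLtJ the highest at a mean of 8.06 CPM. It was called against all 7 strains, although the ranges overlapped (log2 -2.35, SE 0.201, adjusted p = 7.07e-15, edgeR). Trh, thyrotropin-releasing hormone, was at 0.0959 ± 0.0844 against 1.59 ± 2.66 CPM and was called against 4 strains. Glp2r, the receptor of glucagon-like peptide 2, was at 4.63 ± 1.18 CPM, above 5 strains and below NOD/ShiLtJ (10.8 CPM). Avpr1b, the vasopressin receptor of CA2 pyramidal neurons, rose by 1.39, and by 0.88 when CAST/EiJ was left out.

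The distance of WSB/EiJ from each strain was given by the number of genes called in each pair. The pairs share the WSB/EiJ libraries. Against A/J 429 genes (2.47%) were higher and 574 (3.30%) lower, 5.77% in all, and against 129S1/SvImJ 483 (2.78%) and 533 (3.07%), 5.85% in all. Against C57BL/6J 497 (2.86%) were higher and 595 (3.42%) lower, 6.28% in all. Against NOD/ShiLtJ 387 (2.23%) were higher and 669 (3.85%) lower, 6.08% in all, and against NZO/HlLtJ 388 (2.23%) and 713 (4.10%), 6.33% in all. The number called in either direction was thus 1003 to 1101 against the classical strains. Against CAST/EiJ 1034 genes (5.95%) were higher and 850 (4.89%) lower, 1884 (10.8%) in all. Against PWK/PhJ 1188 (6.83%) were higher and 814 (4.68%) lower, 2002 (11.5%) in all. Against the mean of the 5 classical strains more genes were lower (2.76%) than higher (1.95%), 4.71% in all. Against the mean of CAST/EiJ and PWK/PhJ more were higher (5.47%) than lower (3.90%), 9.37% in all.

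**Figure D4:**
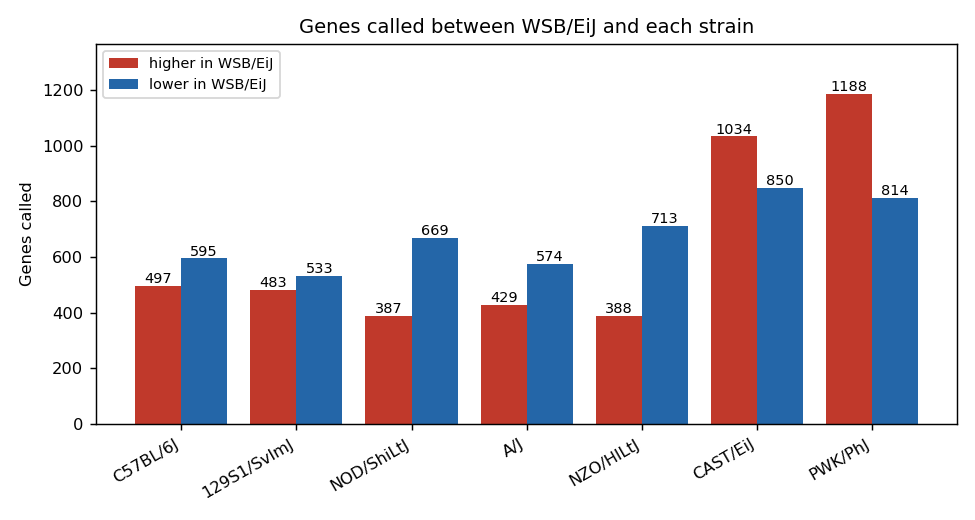
Number of genes called higher (red) and lower (blue) in WSB/EiJ against each of the other 7 strains, with both sexes weighted equally. The counts against the 5 classical strains lie between 387 and 713, and those against CAST/EiJ and PWK/PhJ between 814 and 1188.

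Within WSB/EiJ, 10 genes (0.0575%) differed between females and males at an adjusted p under 0.05, with no fold minimum. The count was 31 without the 4 libraries of other strains that stood apart from their group. Of the 10, 5 lay on the Y chromosome and were higher in males, and Xist, Eif2s3x and 5530601H04Rik on the X were higher in females. The autosomal genes were Kbtbd7 and 2210408I21Rik, both higher in males. Kbtbd7, an adaptor of a ubiquitin ligase, was at 13, 14.7, 16 and 17.1 CPM in the WSB/EiJ females and 39.7, 52.9, 61.3 and 37.0 CPM in the males. In the other 56 libraries, females and males together, it ran from 48.3 to 71.8 CPM with a median of 60.9. The WSB/EiJ females lay below every other library, and 2 of the males lay within the range of the other strains. The log2 difference of females from males was -1.65 (adjusted p = 1.35e-19, edgeR). The test of whether this difference itself departed from that in the other strains called Kbtbd7 and no other gene (0.00575%), with a difference of -1.65 (adjusted p = 1.19e-17, edgeR).

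At an unadjusted p under 0.05, 1500 genes (8.63%) differed by sex in WSB/EiJ and 1519 (8.74%) in the test of the difference. DESeq2 called 2 genes in the latter. 2210408I21Rik was at 6.85, 7.12, 6.49 and 6.94 CPM in females and 10.5, 9.79, 11.2 and 9.71 CPM in males of WSB/EiJ, with no overlap (log2 -0.59, adjusted p = 0.00383, edgeR). Kbtbd7 shares 15.4% of its stretches with 1 other gene, its paralog Kbtbd6, which was at 0.593 CPM in WSB/EiJ. Sex follows the order of title numbers within WSB/EiJ, with females first, so sex and that order cannot be told apart.

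**Figure D5:**
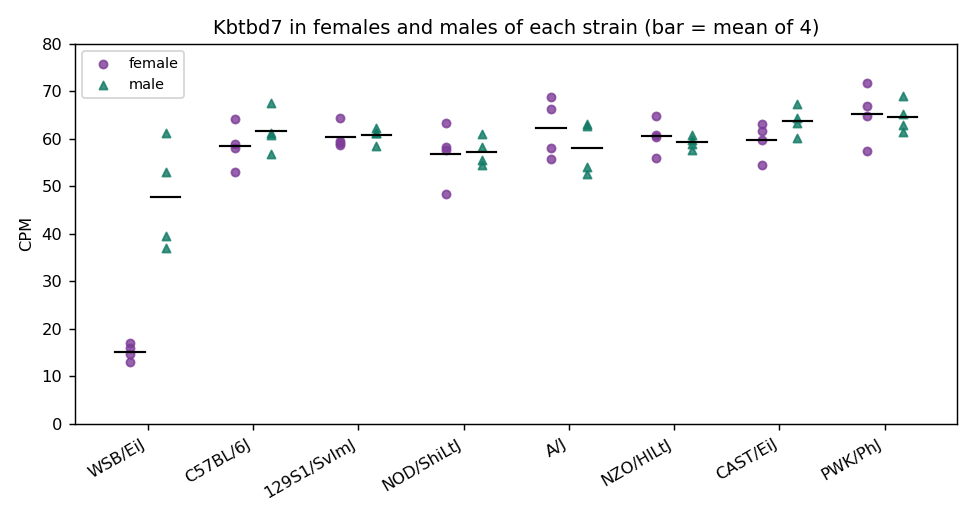
Level of Kbtbd7 (CPM) in each library by strain, with purple circles for females, green triangles for males and a bar at the mean of 4. The 4 WSB/EiJ females sit between 13 and 17.1 CPM, below the WSB/EiJ males at 37.0 to 61.3 CPM and below all libraries of the other strains.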

How the data were processed

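Gene expression was measured by RNA sequencing in 64 hippocampus libraries, in 16 groups of strain and sex with 4 libraries each. The authors deposited a table of raw counts per gene as whole numbers, not normalized. GRCm39 is the build that the submitters' processing notes list, and the name of the deposited table refers to Ensembl release 105. Aligner and counting tool are not given in the sources used here, nor is the use of strand or of strain genomes. Per the labels' protocols, total RNA was made into libraries with a TruSeq kit. Of 64 sample columns, 0 were left unused, and no pair of libraries was identical. As the use of strand is not given, whether reads of overlapping or antisense genes were told apart is not known.

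Genes were filtered with edgeR's filterByExpr (minimum count 10, minimum total 15), which left 17382 of 32227 (53.9%). Libraries were scaled by TMM, and edgeR 4.0.16 in R 4.3.3 was fitted on 16 group means (48 residual degrees of freedom, robust quasi-likelihood). A prior count of 2 entered only the log levels behind library correlations and the choroid plexus score. The fit kept edgeR's default prior count. In simulated data on 17382 genes, the fit recovered 197 of 200 changed genes with 0 false calls for the comparison of WSB/EiJ with the other strains. The simulated spread followed the trend of the same fit, and the other strains did not differ from each other. All planted changes were larger than the fold minimum. The simulation checks that the fit runs and cannot give the error rate in the real data. DESeq2 1.42.0, other filters and fold minimums, an additive model, a choroid plexus covariate and left-out libraries or strains were alternatives. A library stood apart where its median correlation with its group lay more than 3 scaled median absolute deviations below the median. Leave-one-out fits kept the dispersion trend of the whole fit.

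The strain, the gene lists and the rule for named genes were chosen with earlier results of these data known. The rule took protein-coding genes with official symbols: the 12 higher and 12 lower with the largest change, and the 8 higher and 8 lower with the highest level, among genes called against the mean and each strain with no overlap of libraries. It added list members called with the fold minimum, the 5 autosomal genes of smallest p for sex, genes of the interaction test and called neighbours. It named 95 genes, and some of them are not reported here. Members of lists named beside these were chosen after their values were seen. Symbols and 60-base matches came from GENCODE M21 (81 identifiers, with 0.0382% of counts, unmatched), and promoters from RefSeq, where 70 of the 95 symbols matched.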

Additional observations from a re-analysis of the deposited data

Results flagged for a closer look

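Named genes were examined for a library far from the other 3 of its sex in WSB/EiJ, by a gap that takes up more of the group's range than Dixon's critical value for 4 samples. This held in 11 of 186 groups, and chance gives about 1 in 20. Most were at levels where a few counts decide the value. Among these, Ly6c1 was at 0.101 CPM in male 4 against 0.0449 to 0.0464 in the other males, and Cyp4f16 at 0.0465 CPM in female 2 against 0. Gm4724 was at 0.651 CPM in female 2 against 0 to 0.0825, and Nlrp1b at 0.0413 CPM in female 1 against 0. Acp7 was at 0.101 CPM in male 4 against 0.179 to 0.186. Clec4a2 was at 0.0506 CPM in male 4 against 0.0897 to 0.0929, and H2-Eb2 was at 0 in male 3 against 0.0449 to 0.0506 CPM.

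At higher levels, Pycard was at 0.836 CPM in male 3 against 0.583 to 0.607, and Crybg2 at 4.41 CPM in male 3 against 2.78 to 2.93. Lefty1 was at 18.4 CPM in female 1 against 14.6 to 15.1. Dnajc27, a gene named for its p in the sex test without passing it, was at 144 CPM in male 4 against 126 to 127.

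The sex difference of Kbtbd7 in WSB/EiJ departed from that in the other 7 strains by -1.65 on the log2 scale, by the interaction test of the edgeR fit.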

How the results depend on the processing

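No paired analysis was possible because the labels carry no replicate numbers shared between groups, and the numbers used here only follow deposition order. No result changed its sign under the alternatives run. Counts of genes called between strains changed with the filter and the fold minimum, and the sex count with the libraries that stand apart. Without the filter on low counts, 3.19% of the genes in the table were higher (1.36% with it), and 2912 were called against CAST/EiJ, 3085 against PWK/PhJ, 1418 against the classical strains and 2679 against CAST/EiJ and PWK/PhJ together. With a mean count of at least 50, 0.276% were higher and 0.428% lower, and 6 and 37 genes against every strain. The pairs then gave 297 (C57BL/6J), 275 (129S1/SvImJ), 291 (NOD/ShiLtJ), 290 (A/J), 556 (CAST/EiJ), 600 (PWK/PhJ) and 317 (NZO/HlLtJ), with 213 against the classical strains and 457 against CAST/EiJ and PWK/PhJ. Without a fold minimum these values in the same order were 12%, 10.8%, 348, 395, 6564, 5738, 6921, 5497, 9142, 9505, 6615, 7004 and 9388, and with a log2 minimum of 2 they were 0.329%, 0.422%, 19, 29, 382, 376, 403, 366, 755, 785, 373, 262 and 621.

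Without the libraries that stand apart, 31 genes differed by sex in WSB/EiJ and 2 in the interaction test, and DESeq2 gave 2 in the interaction test. Leaving out each library in turn gave 1.28% to 1.38% higher and 1.27% to 1.35% lower, 42 to 50 and 68 to 75 against every strain, 9 to 13 for sex and 1 to 2 for the interaction, which was 2 without 129S1/SvImJ female 1, male 2 or male 3. With a strain left out, and so 1 test fewer to pass, 49 (without C57BL/6J) to 69 (without CAST/EiJ) genes were higher and 76 (without A/J) to 107 (without PWK/PhJ) lower against every remaining strain. Of 90 genes named for strain, 12 lost the call without some library, 1 under DESeq2 (H2-Eb2), and from 1 (without 129S1/SvImJ) to 17 (without CAST/EiJ) when a strain was left out. Depth limits genes under 1 CPM, where 277 higher and 214 lower calls lie.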
